A study of Oryza sativa Japonica Group with 8 samples.

Results

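The Aux/IAA and ARF genes are the nuclear core of the auxin response. Their transcripts were followed here in rice seedlings in darkness or red light, with or without a phytochrome transgene. Members were genes of the RefSeq table with a symbol or synonym of the form IAA or ARF plus a number, with or without the prefix Os, and ADP-ribosylation factors left out. The table held 28 Aux/IAA and 23 ARF genes by this rule, and 26 Aux/IAA and 17 ARF genes had a probe set of their own on the array. These 43 members stand among 17905 genes with such a probe set, and each was represented by the probe set with the highest mean over the 8 arrays. IAA11, IAA29, ARF5, ARF6, ARF8, ARF19, ARF21 and ARF25 had no probe set assigned to them alone and were not analysed here. Several genes carry more than 1 matching name, and each is called here by the name that is no other gene's sole name. By this rule IAA20 is a different gene from IAA4, which the table lists under IAA20 as well.

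All seedlings were of the japonica cultivar Nipponbare, 5 days old, and raised at 28 °C on MS medium, and above-ground tissue was collected in the subjective morning. The 4 groups were wild type in darkness, wild type in continuous red light (irradiance 50 µmol m-2 s-1), and Ubi::OsYHB/Nip seedlings in darkness and in the same red light, with 2 arrays each. OsYHB encodes a form of phytochrome B, a receptor of red light, that signals without light. It was driven by the maize Ubiquitin promoter, which is active in most tissues, and the wild-type groups carried no transgene. The OsYHB arrays came from 2 independent homozygous lines with a single insertion, line 1 with 41-fold and line 9 with 23-fold overexpression, so that replicate and line are the same thing in those groups. Dark-grown plants were collected under dim green light. Whether an array pooled several plants is not given in the sources used here.

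Auxin acts by removing repressors. Aux/IAA proteins bind ARF transcription factors at auxin-responsive promoters and hold them inactive together with TOPLESS-type corepressors. Auxin brings Aux/IAA proteins to the TIR1/AFB receptors, after which they are degraded and the ARFs are released. Many Aux/IAA genes are themselves early targets of ARFs, so their transcripts are commonly used as a readout of auxin response. ARFs with a glutamine-rich middle region activate transcription, and most others repress it. In grass seedlings darkness favours auxin-dependent elongation of the coleoptile and mesocotyl, and phytochrome action in red light restrains it.

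Expression was read on Affymetrix arrays as 1 intensity per probe set, and all values below are log2 intensities or differences of them. The array medians lay between 20.4 and 20.9 on the linear scale, and the replicate correlations of log2 intensity between 0.992 and 0.996. The number of arrays limits the precision, and the p-values measure the spread between 2 arrays per group. A level cannot be set against that of another gene, because each probe set has its own response. IAA16 and IAA26 among the Aux/IAA genes and ARF13 among the ARF genes had a mean at or below 4.38, the median over all probe sets, and a change of these dim members would be compressed.

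The labelled tissue was checked with marker genes. The 4 measured genes of 5 green tissue markers had a summed intensity of 24782.8 to 25831.7 in wild-type darkness and of 46953.8 to 51296.2 in the other 6 arrays. The 5 measured genes of 6 root markers summed to 831.9 to 1101.0 in wild-type darkness and to 618.9 to 765.6 in the other arrays. No marker was listed at 0, the root marker Lsi1 lay between 8.88 and 9.88, and Lsi2, which encodes a silicon transporter of the root, between 2.17 and 4.02. Of the root markers none was called in any comparison. The 6 genes of the seed marker list summed to 812.0 to 1260.9 in wild-type darkness. They summed to 332.4 and 1143.5 in wild-type red light and to 332.8 to 541.7 in OsYHB seedlings. Of the 6 genes LEA19 (log2 -4.27) and RAB21 (-4.48) were called lower and AMY3D (2.32) higher in OsYHB darkness than in wild-type darkness (limma adjusted p = 0.0354, 0.025 and 0.000874). GLUA1, GLUA2 and RAG2 were not called in that comparison. The green tissue and root sums separated wild-type darkness from the other groups compared below. The wild-type red replicates disagreed in the seed list, with 3.39 and 7.84 for LEA19 and 4.84 and 9.14 for RAB21. In wild-type darkness these genes had 7.77 and 6.88, and 9.44 and 8.8. The part of the marker genes in the results was not tested. In whole shoots, fewer cells of a type and less RNA per cell cannot be told apart.

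Both families were at their highest in wild-type darkness, as a group, and lower in the groups with red light, the transgene or both. In wild-type red light 9 of 26 Aux/IAA genes were lower and 1 was higher than in wild-type darkness, and 5 of 17 ARF genes were lower and none higher (limma adjusted p below 0.05). Over the whole array 9.73% of probe sets were called, 4.59% lower and 5.14% higher. As 40 of 43 members are brighter than the median probe set, the 28629 brighter probe sets were also fitted alone, where 21.1% were called, 10.4% lower and 10.8% higher, with 9 of 24 Aux/IAA and 8 of 16 ARF genes lower. In darkness OsYHB seedlings had 14 of 26 Aux/IAA genes and 10 of 17 ARF genes lower than wild type, and none higher, against 17.0% of all probe sets called, 9.27% lower and 7.69% higher. Among the brighter probe sets 36.0% were called there, 21.3% lower and 14.7% higher, with 15 of 24 Aux/IAA genes lower and 1 higher (IAA5) and 10 of 16 ARF genes lower. Both comparisons share the wild-type dark arrays.

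The typical shift was of like size in both families, while the extremes were not. The median log2 change in wild-type red light was -0.28 for Aux/IAA and -0.33 for ARF genes, -0.04 over all probe sets and -0.07 over the brighter ones. In OsYHB darkness it was -0.49 for Aux/IAA and -0.47 for ARF genes, 0.005 over all probe sets and -0.13 over the brighter ones. Aux/IAA changes reached down to -2.37 in wild-type red light and -3.20 in OsYHB darkness, and ARF changes to -0.81 and -1.25. The difference between the families was not tested.

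**Figure D1:**
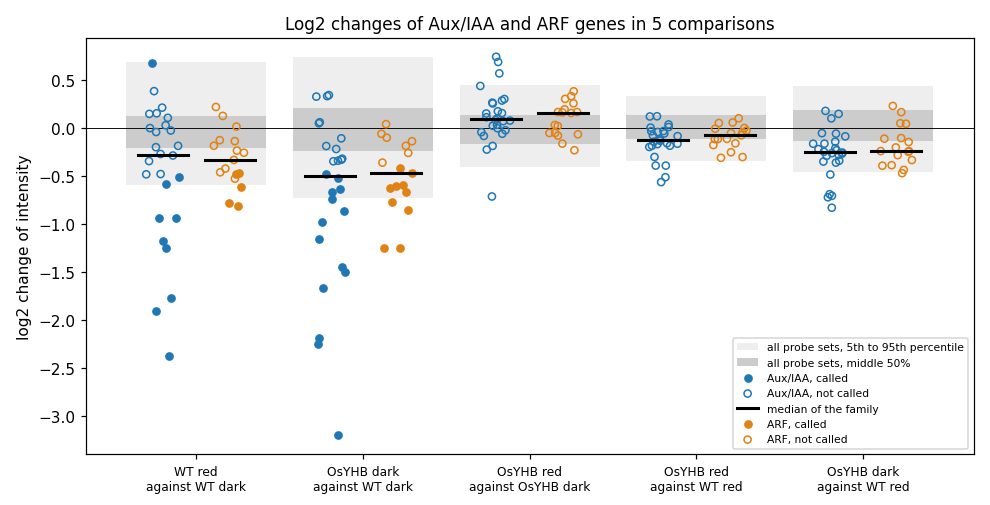
Log2 change of intensity (y axis) of each Aux/IAA gene (blue) and ARF gene (orange) in 5 comparisons (x axis). Filled points were called at a limma adjusted p below 0.05, black lines are family medians, and grey bands show the middle 50% and the 5th to 95th percentile of all probe sets. Called points are seen in the comparisons with wild-type darkness, where Aux/IAA changes reach -3.20 and ARF changes -1.25.

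The array medians of the families show the same order. Set against each gene's wild-type dark mean, the median Aux/IAA gene stood at 0.12 and -0.12 for wild-type darkness, -0.22 and -0.30 in wild-type red light, -0.53 and -0.46 in OsYHB darkness, and -0.46 and -0.38 in OsYHB red light. The median ARF gene stood at 0.06 and -0.06, -0.35 and -0.31, -0.54 and -0.49, and -0.45 and -0.35 in the same order. Of 26 Aux/IAA genes 21 were higher in wild-type dark replicate 1 than in replicate 2, with a median difference of 0.24, and of 17 ARF genes 12, with 0.12. Over all probe sets 26623 of 57258 were higher in replicate 1, with a median difference of -0.02.

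IAA20, IAA18 and IAA9 had the largest falls of the Aux/IAA family. IAA20 had log2 intensities of 7.38 and 6.97 in wild-type darkness and 4.86 and 4.75 in wild-type red light. In OsYHB seedlings it had 4.16 and 3.8 in darkness and 4.39 and 4.45 in red light. Every other array thus lay more than 2 log2 units below both wild-type dark arrays. The fall was 5.17-fold in wild-type red light (log2 -2.37, SE 0.17, limma adjusted p = 0.000133) and 9.18-fold in OsYHB darkness (log2 -3.20, SE 0.17, adjusted p = 4e-05). The OsYHB dark mean lies at the dim end of the array, below the median probe set, so the sizes depend on the scale, and on log2(intensity + 16) the folds were 3.66 (adjusted p = 0.00122) and 5.06 (adjusted p = 0.000573).

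IAA18 had 9.76 and 9.24 in wild-type darkness, 7.67 and 7.52 in wild-type red light, 7.41 and 7.21 in OsYHB darkness, and 7.17 and 7.42 in OsYHB red light. The arrays other than wild-type dark lay close together and well below it. IAA18 fell 3.74-fold in wild-type red light (log2 -1.90, SE 0.19, limma adjusted p = 0.000527) and 4.54-fold in OsYHB darkness (log2 -2.18, SE 0.19, adjusted p = 0.000223). IAA9 had 7.16 and 6.32 in wild-type darkness, 4.68 and 5.26 in wild-type red light, 4.79 and 4.19 in OsYHB darkness, and 4.69 and 4.85 in OsYHB red light. Its replicates were the least alike of the called members, and the groups still did not overlap with wild-type darkness. OsYHB dark replicate 2 lay below the median probe set (4.377), so the size of a fall to OsYHB darkness depends on the scale. IAA9 fell 3.41-fold in wild-type red light (log2 -1.77, SE 0.31, limma adjusted p = 0.00941) and 4.77-fold in OsYHB darkness (log2 -2.25, SE 0.31, adjusted p = 0.00231). Without wild-type red replicate 1 the first of these had a limma adjusted p of 0.0808.

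IAA13, IAA30, IAA31 and IAA12 fell by about 1 log2 unit or more in both comparisons. IAA13, whose stabilised mutant form reduces lateral root formation in rice, had 12.71 and 12.56 in wild-type darkness, 11.61 and 11.29 in wild-type red light, 11.18 and 11.19 in OsYHB darkness, and 11.31 and 11.37 in OsYHB red light. Its fall was 2.27-fold in wild-type red light (log2 -1.18, SE 0.14) and 2.72-fold in OsYHB darkness (log2 -1.45, SE 0.14). All 6 arrays with red light, the transgene or both lay below both wild-type dark arrays.

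IAA30 and IAA31 are next to each other in the RefSeq gene order, with no other protein-coding gene between them. IAA30 had 12.27 and 12.23 in wild-type darkness, 11.36 and 11.27 in wild-type red light, 11.14 and 11.07 in OsYHB darkness, and 11.17 and 11.19 in OsYHB red light. IAA31 had 11.22 and 10.88, 9.77 and 9.83, 9.59 and 9.52, and 9.86 and 9.76 in the same order. Both neighbours therefore had their lowest arrays in OsYHB darkness and their highest in wild-type darkness. IAA30 fell 1.92-fold in wild-type red light and 2.22-fold in OsYHB darkness (log2 -0.94 and -1.15, SE 0.11). IAA31 fell 2.38-fold and 2.82-fold (log2 -1.25 and -1.50, SE 0.14). The limma adjusted p of these falls of IAA13, IAA30 and IAA31 lay between 0.000334 and 0.00124.

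IAA12 differed from them in the transgenic groups. It had 8.81 and 8.61 in wild-type darkness, 7.93 and 7.6 in wild-type red light, 7.13 and 6.97 in OsYHB darkness, and 7.75 and 7.73 in OsYHB red light. OsYHB seedlings thus had less IAA12 signal in darkness than in red light, with no overlap between those groups. IAA12 fell 1.92-fold in wild-type red light (log2 -0.94, SE 0.15, limma adjusted p = 0.00533) and 3.16-fold in OsYHB darkness (log2 -1.66, SE 0.15, adjusted p = 0.000264). Its neighbour in the gene order is IAA11, which was not analysed here.

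IAA24 and IAA15 fell less. IAA24 had 10.3 and 10.02 in wild-type darkness, 9.68 and 9.63 in wild-type red light, 9.33 and 9.26 in OsYHB darkness, and 9.58 and 9.62 in OsYHB red light. IAA15 had 11.91 and 11.86, 11.23 and 11.36, 11.26 and 11.17, and 11.12 and 11.14 in the same order. In both genes every array of the other groups lay below the wild-type dark arrays. In wild-type red light IAA24 fell by 0.51 (log2, SE 0.13, limma adjusted p = 0.0439), and in OsYHB darkness by 0.86 (SE 0.13, adjusted p = 0.00321). IAA15 fell by 0.58 (SE 0.11, limma adjusted p = 0.014) and 0.67 (SE 0.11, adjusted p = 0.00579). The red light calls of IAA24 and IAA15 were lost in fits without single arrays, with wild-type red replicates 1 and 2 among them for both genes and every array but wild-type dark replicate 2 for IAA24, at adjusted p up to 0.21.

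IAA14, IAA23, IAA1, IAA3 and IAA7 were called lower in OsYHB darkness and not in wild-type red light. The difference between these groups was itself not called for any of them (adjusted p from 0.0764 for IAA14 upward). IAA14 had 8.66 and 8.76 in wild-type darkness, 8.5 and 8.39 in wild-type red light, 7.8 and 7.67 in OsYHB darkness, and 8.54 and 8.42 in OsYHB red light. Its OsYHB dark arrays were the lowest by a clear margin and the red light arrays of both genotypes were alike. IAA14 fell by 0.97 in OsYHB darkness (SE 0.12, limma adjusted p = 0.00126), next to a log2 change of -0.27 in wild-type red light (SE 0.12, adjusted p = 0.218).

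IAA7 had 6.66 and 6.73 in wild-type darkness, 7.05 and 6.77 in wild-type red light, 6.13 and 6.31 in OsYHB darkness, and 6.81 and 6.78 in OsYHB red light. As in IAA14, OsYHB darkness alone stood below the other 3 groups. It fell by 0.47 in OsYHB darkness (SE 0.14, limma adjusted p = 0.0461), next to a log2 change of 0.21 in wild-type red light (SE 0.14, adjusted p = 0.4). The call was lost with quantile normalization (log2 -0.33, adjusted p = 0.143) and without either wild-type dark array or any 1 of the OsYHB arrays (adjusted p from 0.0741 to 0.198).

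IAA1, IAA3 and IAA23 showed stepwise levels. IAA1, which slows growth in rice when overexpressed, had 11.04 and 10.66 in wild-type darkness, 10.43 and 10.58 in wild-type red light, 10.28 and 10.16 in OsYHB darkness, and 9.94 and 10.05 in OsYHB red light. IAA3 had 12.84 and 12.78, 12.59 and 12.46, 12.32 and 12.28, and 12.34 and 12.4 in the same order. IAA23, which maintains the root quiescent centre in rice, had 7.35 and 7.03, 6.89 and 6.53, 6.45 and 6.46, and 6.55 and 6.59. The probe set used for IAA23 is of a type that can share transcripts with similar sequences. In each of the 3 genes wild-type red light lay between wild-type darkness and OsYHB darkness. In OsYHB darkness IAA1 fell by 0.63 (SE 0.15, limma adjusted p = 0.0249), IAA3 by 0.52 on the log2 scale (-0.515, SE 0.11, adjusted p = 0.0171) and IAA23 by 0.73 (-0.735, SE 0.16, adjusted p = 0.0161). With a gene's probe sets averaged the IAA1 call was lost (log2 -0.32, adjusted p = 0.166). In wild-type red light their log2 changes were -0.34, -0.285 and -0.48 (adjusted p = 0.218, 0.168 and 0.102). On log2(intensity + 16) the red light fall of IAA3 was called (limma adjusted p = 0.034).

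**Figure D2:**
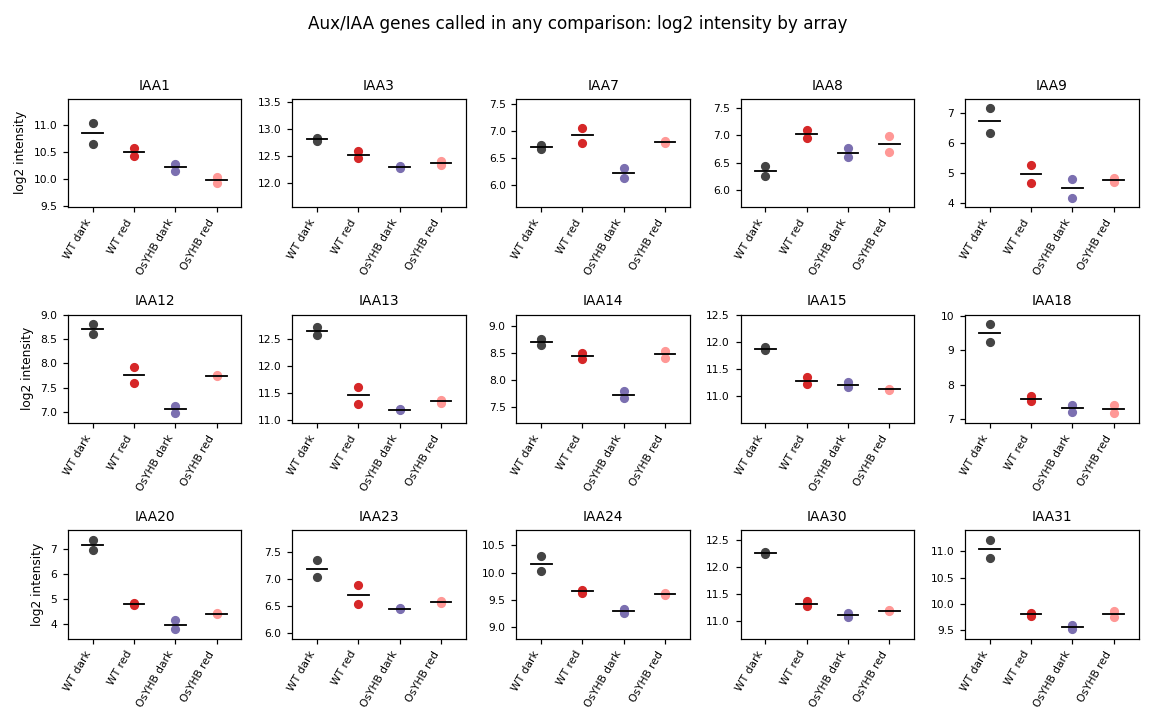
Log2 intensity (y axes, each panel on its own range) of the 15 Aux/IAA genes called in at least 1 comparison of groups differing in light or genotype alone. Points are the 2 arrays of each group and black lines their mean. Wild-type darkness is the highest group in 13 panels, IAA7 and IAA8 excepted, and IAA20 spans the widest range, from 7.38 to 3.8.

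IAA8 was the 1 Aux/IAA gene called higher with all arrays and probe sets in the fit. It had 6.43 and 6.26 in wild-type darkness, 7.1 and 6.95 in wild-type red light, 6.61 and 6.76 in OsYHB darkness, and 6.69 and 6.99 in OsYHB red light. Both wild-type red arrays lay above both wild-type dark arrays, and the OsYHB arrays lay between or beside them. IAA8 rose 1.61-fold in wild-type red light (log2 0.68, SE 0.14, limma adjusted p = 0.0207), and its log2 change in OsYHB darkness was 0.345 (SE 0.14, adjusted p = 0.141), or 0.49 and called with quantile normalization (adjusted p = 0.0411). The rise was not called without wild-type dark replicate 2 or either wild-type red array (adjusted p from 0.0726 to 0.135). It was not called either with the mean of the gene's probe sets (log2 0.35, adjusted p = 0.0954). The other probe set is dim, with a mean of 2.2, and had a log2 change of 0.016 (limma adjusted p = 0.953). Why the probe sets differ was not tested.

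The other 11 Aux/IAA genes were called in none of the comparisons in that fit. IAA5 had 10.44 and 10.46 in wild-type darkness, 10.58 and 10.62 in wild-type red light, 10.77 and 10.79 in OsYHB darkness and 10.7 and 10.74 in OsYHB red light, so that its order ran opposite to most of the family without overlap between these groups (log2 0.33 in OsYHB darkness, SE 0.11, limma adjusted p = 0.0683). This rise was called with log2(intensity + 16) (adjusted p = 0.00501), with dim probe sets left out (0.0303) and with an intensity trend (0.0266). IAA6, which takes part in drought tolerance and tiller growth in rice, had its lowest arrays in OsYHB red light, at 8.01 and 8.5, against 9.46 and 9.12 in wild-type darkness. Its other arrays lay at 8.69 and 8.94 in wild-type red light and at 8.88 and 9.05 in OsYHB darkness. IAA17, whose probe set is the brightest of the family, had 13.16 and 13.11 in wild-type darkness and 12.77 to 12.95 elsewhere, and its log2 changes were -0.18 and -0.345 (limma adjusted p = 0.351 and 0.0592). The second of these was called in the same 3 settings as IAA5 (adjusted p from 0.00449 to 0.0264). Its probe set is of a type that can share transcripts with similar sequences. IAA16, whose probe set is the dimmest, had 2.26 to 2.61 over all arrays. IAA2, IAA4, IAA10, IAA19, IAA21, IAA25 and IAA26 had log2 changes from -0.20 to 0.39 in wild-type red light and from -0.34 to 0.33 in OsYHB darkness.

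Among the ARF genes ARF16, ARF1, ARF22, ARF2 and ARF24 fell in both comparisons. ARF16, an activator-type factor that takes part in the phosphate starvation response of rice, had 8.57 and 8.33 in wild-type darkness, 7.73 and 7.55 in wild-type red light, 7.37 and 7.04 in OsYHB darkness, and 7.52 and 7.41 in OsYHB red light. ARF1 had 7.86 and 7.44, 6.83 and 6.91, 6.28 and 6.52, and 6.52 and 6.61 in the same order. In both genes the wild-type dark arrays stood apart above the other 6. ARF16 fell 1.75-fold in wild-type red light (log2 -0.81, SE 0.15, limma adjusted p = 0.0133) and 2.37-fold in OsYHB darkness (log2 -1.25, SE 0.15, adjusted p = 0.00136). ARF1 fell 1.72-fold (log2 -0.78, SE 0.16, limma adjusted p = 0.0202) and 2.37-fold (log2 -1.25, SE 0.16, adjusted p = 0.00175).

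ARF22, a target of the microRNA miR160 in rice, had 9.81 and 9.56 in wild-type darkness, 9.13 and 9.01 in wild-type red light, 8.87 and 8.79 in OsYHB darkness, and 8.95 and 9.04 in OsYHB red light. Its log2 change was -0.62 under red light (SE 0.13, limma adjusted p = 0.0196) and -0.855 under the transgene in darkness (SE 0.13, adjusted p = 0.00336). ARF24, which acts with ARF23 on a gene for an actin-organising formin in rice, had 9.41 and 9.54, 9.01 and 8.98, 8.93 and 8.84, and 8.76 and 8.91 in the same order of groups. ARF24 fell by 0.48 (SE 0.12, limma adjusted p = 0.0387) and by 0.59 (SE 0.12, adjusted p = 0.0124). In these genes too no array of another group reached the wild-type dark arrays.

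ARF2, also listed as OsETTIN2, had 9.15 and 9.06 in wild-type darkness, 8.58 and 8.69 in wild-type red light, 8.72 and 8.65 in OsYHB darkness, and 8.64 and 8.58 in OsYHB red light. Its log2 change was -0.47 in the first comparison (SE 0.11, limma adjusted p = 0.0341) and -0.42 in the second (SE 0.11, adjusted p = 0.0373). A second probe set of ARF2 gave log2 changes of -0.55 (adjusted p = 0.026) and -0.93 (adjusted p = 0.00185), so that the probe sets disagreed on the size of the change in OsYHB darkness. The second one was also called in the light by genotype interaction (log2 0.81, SE 0.17, adjusted p = 0.0387), where the brighter one was not (0.39, adjusted p = 0.216).

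Another 5 ARF genes were called lower in OsYHB darkness and not in wild-type red light, namely ARF10, ARF7, ARF17, ARF18 and ARF23. ARF10 had 7.5 and 7.19 in wild-type darkness, 6.83 and 6.81 in wild-type red light, 6.45 and 6.69 in OsYHB darkness, and 6.9 and 6.86 in OsYHB red light. ARF7 had 9.01 and 9.06, 8.64 and 8.59, 8.45 and 8.31, and 8.54 and 8.6 in the same order. ARF18 had 9.57 and 9.33, 8.98 and 8.99, 8.9 and 8.79, and 8.83 and 8.92. In these 3 genes the wild-type red arrays also lay below the wild-type dark arrays, with log2 changes of -0.53, -0.42 and -0.46 that just missed the threshold (limma adjusted p = 0.0571, 0.0522 and 0.0576). All 3 falls in wild-type red light were called on log2(intensity + 16) (adjusted p = 0.049, 0.0111 and 0.0295). They were also called with dim probe sets left out (0.0363, 0.0255 and 0.0326). Those of ARF7 and ARF18 were called with quantile normalization and with an intensity trend as well. In OsYHB darkness the falls were 0.77, 0.66 and 0.60 (adjusted p = 0.00894, 0.00603 and 0.0144).

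ARF17 had 9.41 and 9.37 in wild-type darkness, 9.19 and 9.12 in wild-type red light, 8.86 and 8.68 in OsYHB darkness, and 9.13 and 9.18 in OsYHB red light, where the red light arrays of both genotypes were alike and OsYHB darkness was lowest. It fell by 0.62 in OsYHB darkness (-0.625, SE 0.12, limma adjusted p = 0.00894), next to a log2 change of -0.23 in wild-type red light (adjusted p = 0.274). ARF23 had 10.42 and 10.28, 10.16 and 10.27, 9.79 and 9.97, and 9.81 and 9.99. Here genotype rather than light separated the arrays, and both OsYHB groups lay below both wild-type groups. ARF23 fell by 0.47 in OsYHB darkness (SE 0.13, limma adjusted p = 0.0422), and its log2 change against wild type was -0.31 in red light (SE 0.13, adjusted p = 0.648). The difference between OsYHB darkness and wild-type red light was not called for any of these 5 genes (adjusted p from 0.181 for ARF17 upward).

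**Figure D3:**
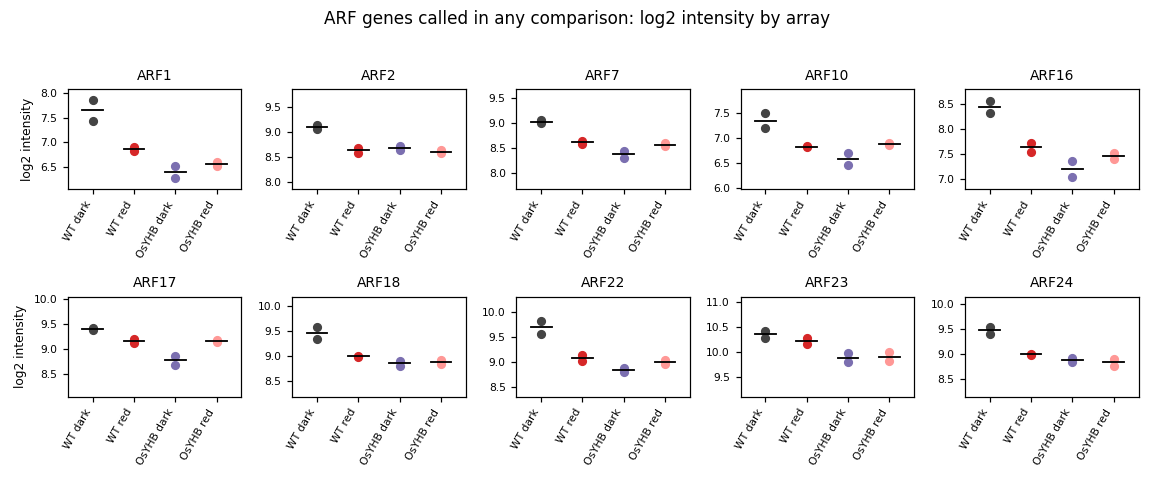
Log2 intensity (y axes, each panel on its own range) of the 10 ARF genes called in at least 1 comparison of groups differing in light or genotype alone. Points are the 2 arrays of each group and black lines their mean. Wild-type darkness is the highest group in all 10 panels, and ARF1 and ARF16 have the widest gaps to OsYHB darkness, -1.25 on the log2 scale in both.

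The remaining 7 ARF genes, ARF3, ARF4, ARF9, ARF12, ARF13, ARF14 and ARF15, were called in none of the comparisons with all arrays and probe sets in the fit. ARF12, an activator-type factor that promotes root elongation in rice and has the brightest probe set of the family, had 10.36 and 10.44 in wild-type darkness and 9.91 to 10.21 in the other arrays (log2 -0.26 and -0.36, limma adjusted p = 0.272 and 0.0902). The second of these changes was called on log2(intensity + 16) (adjusted p = 0.0451). ARF13, with the dimmest probe set, had 2.58 to 2.83. ARF9 had 8.59 and 8.38 in wild-type darkness and 8.63 and 8.79 in wild-type red light, the largest positive ARF change in that comparison (log2 0.22, SE 0.12, adjusted p = 0.344). ARF15, also listed as OsETTIN1, had 10.13 and 10.01, 10.1 and 10.28, 9.88 and 9.74, and 10.09 and 10.19, with its lowest arrays in OsYHB darkness.

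The called ARF genes were spread over the known kinds of ARF. Of the 3 measured activator-type genes 1 fell in wild-type red light (ARF16) and 2 in OsYHB darkness (ARF16 and ARF17). Of the 3 measured miR160 targets, ARF10, ARF18 and ARF22, 1 fell in wild-type red light and 3 in OsYHB darkness. Of the 4 targets of tasiR-ARF small RNAs, ARF2, ARF3, ARF14 and ARF15, 1 fell in each comparison, ARF2 in both. Of 7 other genes of the repressor type 2 fell in wild-type red light and 4 in OsYHB darkness. Over all probe sets 4.59% and 9.27% were called lower in these comparisons, and 10.4% and 21.3% among the brighter ones. The kinds were taken from general knowledge of the family after the values had been seen, and the differences between them were not tested.

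In wild-type red light 6 Aux/IAA genes (IAA12, IAA13, IAA18, IAA20, IAA30 and IAA31) and 0 ARF genes were called whichever array was left out. The 5 ARF genes called there were ARF1, ARF2, ARF16, ARF22 and ARF24. All were lost without wild-type dark replicate 1, wild-type red replicate 1 or wild-type red replicate 2. Calls over all probe sets fell too in these fits, and in those without any 1 of the OsYHB arrays. ARF2 and ARF24 were lost whichever array was left out. In the fit of all arrays 9 of 17 ARF genes had an unadjusted limma p below 0.05, all lower. Of all probe sets 23.4% had such a p, in either direction. Among the brighter probe sets fitted alone it was 10261 of 28629. The Aux/IAA calls numbered 6 without wild-type red replicate 1, where IAA8, IAA9, IAA15 and IAA24 were lost. In OsYHB darkness 9 Aux/IAA genes (those 6 with IAA9, IAA14 and IAA24) and 3 ARF genes (ARF1, ARF16 and ARF22) were called whichever array was left out. Without OsYHB dark replicate 2, which is line 9, calls over all probe sets fell as well as those of the members. There IAA1, IAA3, IAA7, IAA15, IAA23, ARF2, ARF7, ARF17, ARF18, ARF23 and ARF24 were lost, and ARF10 was lost without OsYHB dark replicate 1. IAA1, IAA3 and IAA23 were also lost without OsYHB dark replicate 1 and without wild-type dark replicate 1, ARF18 without wild-type dark replicate 1, and ARF2 and ARF23 whichever array was left out. The adjusted p of the lost calls was 0.0501 to 0.198.

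In OsYHB seedlings red light added no called change to either family. Of 26 Aux/IAA and 17 ARF genes 0 were called in OsYHB red light against OsYHB darkness, where limma called 0.0105% of all probe sets, 0.00349% higher and 0.00699% lower. At an unadjusted p below 0.05 there were 6 Aux/IAA genes (5 higher, 1 lower) and 2 ARF genes (both higher), against 14.6% of all probe sets. Among the brighter probe sets fitted alone 5839 of 28629 had such a p, in either direction. The largest differences were those of IAA14 (log2 0.74, SE 0.12, adjusted p = 0.0949), IAA6 (-0.71, SE 0.19, adjusted p = 0.188), IAA12 (0.69, SE 0.15, adjusted p = 0.135) and IAA7 (0.57, SE 0.14, adjusted p = 0.154). IAA14, IAA12 and IAA7 were higher in both red light arrays than in both dark arrays, and IAA6 was lower in both. The median difference was 0.09 for Aux/IAA and 0.16 for ARF genes, -0.02 over all probe sets and 0.02 over the brighter ones.

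Under red light the transgene added no called change either. Of 26 Aux/IAA and 17 ARF genes 0 were called in OsYHB against wild type, where limma called 0.0192% of all probe sets, 0.00873% higher and 0.0105% lower. Of all probe sets 7.6% had an unadjusted p below 0.05, and 2490 of the 28629 brighter ones fitted alone. At that threshold there were 3 Aux/IAA genes and 1 ARF gene, all lower. They were IAA6 (log2 -0.56, SE 0.19), IAA1 (-0.51, SE 0.15), IAA4 (-0.39, SE 0.16) and ARF23 (-0.31, SE 0.13). The Aux/IAA changes lay between -0.56 and 0.12 and the ARF changes between -0.31 and 0.10.

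OsYHB darkness is the transgene without light, and wild-type red light is light without the transgene. Of 26 Aux/IAA and 17 ARF genes 0 were called between them, where limma called 0.194% of all probe sets, 0.0699% higher and 0.124% lower. At an unadjusted p below 0.05 there were 6 Aux/IAA and 5 ARF genes, all lower in OsYHB darkness, against 16.4% of all probe sets. Among the brighter probe sets fitted alone 6003 of 28629 had such a p, in either direction. IAA20 (log2 -0.83, SE 0.17, adjusted p = 0.112), IAA12 (-0.72, SE 0.15, adjusted p = 0.109), IAA14 (adjusted p = 0.0764) and IAA7 (-0.69, SE 0.14, adjusted p = 0.102) had the largest differences, IAA14 with an SE of 0.12 at -0.705. The median difference was -0.25 for Aux/IAA and -0.24 for ARF genes, 0.03 over all probe sets and -0.05 over the brighter ones. Of the differences 23 of 26 Aux/IAA and 13 of 17 ARF ones were below 0. A p that misses the threshold does not show that these groups are alike.

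The light by genotype interaction compares the red light response of the genotypes directly. A value above 0 means a response that is less negative or more positive in OsYHB than in wild type, not a stronger one. It was called above 0 in 9 of 26 Aux/IAA genes and 1 of 17 ARF genes, and below 0 in none, against 4.22% of all probe sets called, 1.53% above and 2.68% below. Among the brighter probe sets alone it was called above 0 in 9 of 24 Aux/IAA and 6 of 16 ARF genes, against 4.58% above and 6.40% below. IAA20 had the largest value (log2 2.81, SE 0.25, limma adjusted p = 0.0012), with a red light response of -2.37 in wild type and 0.44 in OsYHB. IAA9 followed with 2.06 (SE 0.44, adjusted p = 0.0397) and IAA18 with 1.88 (SE 0.26, adjusted p = 0.0072). On log2(intensity + 16) the IAA9 value was 1.54 and was not called (limma adjusted p = 0.0788). IAA12 had 1.63 (SE 0.21, adjusted p = 0.00481), IAA31 1.51 (SE 0.20, adjusted p = 0.00535), IAA13 1.33 (SE 0.19, adjusted p = 0.00867) and IAA30 1.02 (SE 0.15, adjusted p = 0.0101). In these genes the wild-type response was clearly below 0 and the OsYHB response within 0.7 of 0.

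IAA14 reached the call in another way, with a wild-type response of -0.27, an OsYHB response of 0.74 and an interaction of 1.01 (SE 0.17, limma adjusted p = 0.0146). IAA24 had an interaction of 0.81 (SE 0.18, adjusted p = 0.0472) and ARF16 of 1.07 (SE 0.22, adjusted p = 0.0331). IAA12, IAA13, IAA20 and IAA31 were called whichever array was left out. With a gene's probe sets averaged IAA31 lost its call (limma adjusted p = 0.0934). With the replicate number, which stands for the line in the OsYHB groups, as a block, IAA9 (adjusted p = 0.0563) and IAA24 (0.064) lost theirs, which leaves 7 Aux/IAA genes. IAA9 lost its call for 6 of 8 arrays, OsYHB dark replicate 1 and wild-type dark replicate 2 excepted (adjusted p from 0.0615 to 0.146), and IAA24 for 7, wild-type dark replicate 2 excepted (0.0687 to 0.181). Without wild-type red replicate 2 the calls of IAA9, IAA14, IAA18, IAA24 and IAA30 were lost. Those of IAA9, IAA14, IAA24 and IAA30 were lost without OsYHB dark replicate 2, and those of IAA9, IAA14 and IAA24 without OsYHB red replicate 1. Calls over all probe sets fell as well in these fits. ARF16 kept its call when OsYHB dark replicate 1 or wild-type dark replicate 2 was dropped, and lost it for each of the other 6 arrays. Without wild-type dark replicate 2 ARF1, ARF10 and ARF22 were called as well, and calls over all probe sets rose.

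**Figure D4:**
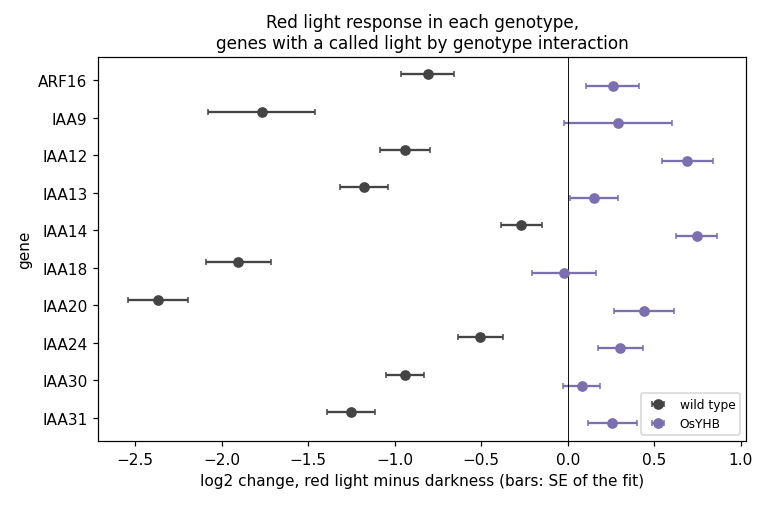
Log2 change from darkness to red light (x axis, bars are the standard error of the limma fit) in wild type (dark grey) and in OsYHB seedlings (violet) for the 10 genes with a called interaction (y axis). All wild-type points lie below 0, from -2.37 for IAA20 to -0.27 for IAA14. The OsYHB points lie between -0.02 for IAA18 and 0.74 for IAA14.

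Other genes of the auxin pathway were read from lists made by gene name. Of 16 genes of auxin conjugation and conjugate hydrolysis 4 fell and 1 rose in wild-type red light, and 7 fell and 1 rose in OsYHB darkness. The list median was -0.27 and -0.51, against -0.04 and 0.005 over all probe sets, of which 9.73% and 17.0% were called, and -0.07 and -0.13 over the brighter probe sets, of which 21.1% and 36.0% were called. ILL3, an auxin conjugate hydrolase gene, had log2 changes of -6.93 and -7.185, and GH3.2, an auxin-conjugating enzyme gene, of -3.60 and -4.37. Outside wild-type darkness the group means of both genes were at or below the median probe set and are not shown to be above background. On log2(intensity + 16) the changes were -6.08 and -6.24 for ILL3 and -2.68 and -3.00 for GH3.2, all of them called. GH3.2 is, like Aux/IAA genes, of a family known for early induction by auxin.

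Of 5 measured auxin efflux carrier genes among 9 known by name, 2 fell in wild-type red light and 1 in OsYHB darkness. Over all probe sets 4.59% and 9.27% were called lower in these comparisons, and 10.4% and 21.3% among the brighter ones. OsPIN10a had 8.28 and 8.3 in wild-type darkness and 7.22 to 7.44 in the other arrays (log2 -0.92 and -1.03, SE 0.11, limma adjusted p = 0.00158 and 0.000724). The probe set of OsPIN10a is of a type that can share transcripts with similar sequences. OsPIN4 had log2 changes of -1.67 (SE 0.33, adjusted p = 0.0157) and -0.60 (-0.605, adjusted p = 0.251). Its wild-type red arrays were dim, at 3.83 and 4.54. Its red light call was lost on log2(intensity + 16) (log2 -1.116, limma adjusted p = 0.0536) and with the arrays of both groups alone (adjusted p = 0.0747). The call was also lost without wild-type red replicate 1 (log2 -1.316). Of 2 auxin synthesis genes FIB, a tryptophan aminotransferase gene, fell by 0.42 in OsYHB darkness (SE 0.11, adjusted p = 0.0309). It was called in none of the fits that left out an array (adjusted p up to 0.132). OsYUCCA1, a flavin monooxygenase gene of auxin synthesis, was not called (log2 0.38 and 0.40, adjusted p = 0.242 and 0.155).

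Of 3 corepressor genes of the TOPLESS type none was called in either comparison, with log2 changes from -0.28 to 0.12. SAUR39, the 1 measured gene of the SAUR list, which lowers auxin synthesis and transport in rice when overexpressed, had called log2 rises of 2.24 (SE 0.42, limma adjusted p = 0.0126) and 1.93 (SE 0.42, adjusted p = 0.0172) over wild-type darkness. It had 7.48 and 6.11 in wild-type darkness, 9.12 and 8.95 in wild-type red light, 8.64 and 8.82 in OsYHB darkness, and 8.11 and 9.01 in OsYHB red light. Its direction was thus opposite to that of most Aux/IAA genes, with no overlap between wild-type darkness and the other groups. The call was lost without either wild-type red array in the first comparison (adjusted p = 0.0899 and 0.0776) and without either OsYHB dark array in the second (0.0673 and 0.105). No gene of the table matched the receptor names TIR1 or AFB, so the receptors were not analysed here.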

How the data were processed

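The authors deposited 1 table of linear intensities, 1 value per probe set and array. Per the labels' protocols, total RNA was labelled with an Affymetrix 3' IVT kit. RMA, GCOS and limma are named per the submitters' processing notes, with no role or order, with settings not given in the sources used here. As the array medians were nearly equal, no further normalization was applied. Values were converted to log2, 123 controls were dropped and 57258 probe sets tested.

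Of these, 22436 had 1 gene in GEO's platform annotation, 95 several and 34727 none. Gene names came from the RefSeq table of a rice assembly, whose coordinates were not used. Limma 3.58.1 (R 4.3.3) fitted group means to all 8 arrays, with 4 residual and 4.27 prior degrees of freedom. Two-sided tests were used, with p-values adjusted by Benjamini-Hochberg over all tested probe sets and calls at an adjusted p below 0.05. The fit was tested on simulated data. LAX1 and LAX2 matched the transporter list by name and were left out as panicle genes.

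Members and lists were chosen with earlier results of these data known. Named genes were those called in any comparison of light or genotype, at most 10 per family and comparison by size, those called in the interaction, those opposite to most of their family, and the highest and lowest means. No arrays held identical values. Replicate numbers stand for the transgenic line in the OsYHB groups, and the labels do not say whether arrays of equal number share anything else. The deviations of the OsYHB arrays from their group means correlated at 0.145 between light conditions. Between the other pairs of groups these correlations lay between -0.172 and 0.093. Alternatives changed the normalization, the scale, the filter, the arrays in the fit, the replicate block, the variance trend and the choice of probe set. Tables and plots were made with pandas 2.3.3 and matplotlib 3.10.9 in Python 3.11.15. No sequence is shown, since none of the tables used here holds one.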

Additional observations from a re-analysis of the deposited data

Results flagged for a closer look

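In 10 members the red light response differed between the genotypes by the test of the interaction itself, with the wild-type response subtracted from the OsYHB response on the log2 scale. The values were 2.81 for IAA20, 2.06 for IAA9, 1.88 for IAA18, 1.63 for IAA12, 1.51 for IAA31, 1.33 for IAA13, 1.07 for ARF16, 1.02 for IAA30, 1.01 for IAA14 and 0.81 for IAA24. All 10 values rest on the same 8 arrays and share the wild-type dark arrays, in which replicate 1 was higher than replicate 2 in 21 of 26 Aux/IAA genes. Without wild-type dark replicate 1 the calls of IAA9, IAA24 and ARF16 were lost, and the other 7 were kept.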

How the results depend on the processing

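The called genes of auxin conjugation and hydrolysis other than ILL3 and GH3.2 were not followed over the alternatives tried. None of the 62 called values of members and of the named pathway genes changed sign under these alternatives. Members not called did, 6 of 43 members in wild-type red light, 7 in OsYHB darkness and 11 in the interaction. Of 917 alternative fits of these values 763 kept the call and 154 lost it, which touched 33 of the 62 calls. ARF genes called in wild-type red light numbered 8 with log2(intensity + 16), 8 with dim probe sets left out and 1 with the arrays of both groups alone, against 5. ARF genes called in OsYHB darkness numbered 5 with those arrays alone, against 10, and the ARF median there was -0.527 with dim probe sets left out and -0.588 with a gene's probe sets averaged. ARF genes called in the interaction numbered 4 with log2(intensity + 16), 6 with dim probe sets left out and 2 with an intensity trend, against 1. With quantile normalization the ARF median was 0.097 between the OsYHB groups and -0.157 for OsYHB darkness against wild-type red light. Over all probe sets the arrays of both groups alone gave 3329 calls in wild-type red light, 4872 in OsYHB darkness, 0 between the OsYHB groups, 22 between the genotypes in red light and 232 for OsYHB darkness against wild-type red light. Between the OsYHB groups there were 0 with log2(intensity + 16), 2 with dim probe sets left out and 45 with an intensity trend, and between the genotypes in red light 1 and 1 in the first 2 of these settings. For OsYHB darkness against wild-type red light log2(intensity + 16) gave 11. The cause of these shifts was not tested.

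With the replicate number as a block, 3 ARF genes were called in wild-type red light, and over all probe sets 2 between the OsYHB groups and 18 between the genotypes in red light. The block ended the calls of IAA24, ARF2 and ARF24 in wild-type red light, of IAA7, ARF2, ARF23 and FIB in OsYHB darkness, and of IAA9 and IAA24 in the interaction (adjusted p from 0.052 to 0.0708), and no other call of a member or named pathway gene. The number pairs arrays by line in the OsYHB groups only. Leaving out each array in turn gave 6 to 9 Aux/IAA and 0 to 5 ARF calls in wild-type red light, 9 to 14 and 4 to 8 in OsYHB darkness, and 4 to 9 and 0 to 4 in the interaction. The ARF median ranged from -0.536 to -0.401 in OsYHB darkness and from 0.091 to 0.165 between the OsYHB groups. Calls over all probe sets ranged from 2386 to 5900 in wild-type red light, 3647 to 9823 in OsYHB darkness, 0 to 94 between the OsYHB groups, 1 to 40 between the genotypes in red light, 809 to 3304 in the interaction and 1 to 192 for OsYHB darkness against wild-type red light. A group left with 1 array was assumed to vary like the others. The values carry no detection call, so dim members may lie in the background, and 2 arrays per group limit the precision.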

Other observations

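Of 43 members 9 had further probe sets, 11 in all, of which 5 had a mean at or below the median of all probe sets. IAA23 had a second bright probe set that was called lower in wild-type red light as well (log2 -0.63, SE 0.15, limma adjusted p = 0.0395), where the probe set used in the report was not. IAA4 had a further probe set called lower in OsYHB darkness (log2 -0.54, SE 0.14, adjusted p = 0.0354), against -0.32 and an adjusted p of 0.218 for the brighter one. The second probe set of ARF23 fell by 0.62 in OsYHB darkness (SE 0.13, limma adjusted p = 0.0152). The further probe sets given here for IAA4 and ARF23 are of the type that can share transcripts with similar sequences. Both probe sets of ARF4 were not called in either comparison. The dim second probe sets of IAA1, IAA8 and IAA31 had log2 changes between -0.17 and 0.11 in both comparisons with wild-type darkness. The dim second probe set of IAA3 was lower, by -0.61 in wild-type red light (adjusted p = 0.109) and -0.74 in OsYHB darkness (adjusted p = 0.0411), and the dim further one of IAA23 had 0.04 and -0.04.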
